A study of Mus musculus with 12 samples.

Results

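The effect of a tumour on gene expression was set against itself in a pair of muscles. For each gene the change in gastrocnemius of tumour-bearing mice (C26 minus NTB) was reduced by the change in heart (C26 minus NTB), so that a positive difference is a tumour effect that was higher in gastrocnemius and a negative one an effect that was lower there. All rows of the array table with a gene symbol were taken, 23819 of 35556 rows, of which 22066 could be given the name of 1 gene and stand for 19610 genes. The 4 groups were C26 gastrocnemius, NTB gastrocnemius, C26 heart and NTB heart, with 3 arrays each of what the series calls biological replicates. C26 mice had received cells of the C26 colon carcinoma under the skin of the flank in 100 µl of medium, and NTB (non-tumour-bearing) mice the medium alone. All mice were Balb/c-DBAj hybrids of 10 to 11 weeks. Gastrocnemius, a calf muscle, and heart were taken whole and from different cohorts of animals, so that muscle and cohort cannot be told apart in any difference below. In whole tissue, fewer cells of a type and less RNA per cell cannot be told apart either.

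The C26 tumour is a standard mouse model of cancer cachexia, the loss of muscle and fat that accompanies some cancers. In wasting limb muscle, FoxO transcription factors and glucocorticoids are known to switch on muscle-specific ubiquitin ligases, which tag proteins of the contractile apparatus for the proteasome, while autophagy delivers organelles and protein to the lysosome. Insulin, IGF-1 and the kinase Akt hold the FoxO factors out of the nucleus and promote the making of protein. The heart also loses mass in cachexia, and it is a muscle that never rests, with a dense content of mitochondria, vessels and fibroblasts.

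The arrays of gastrocnemius differed from each other more than those of heart, with a median residual SD per row of 0.21 and 0.12 on the log2 scale. C26 gastrocnemius array 3 lay farthest from its group, with a mean absolute deviation of 0.249, against 0.0869 to 0.174 for the other 11 arrays. In gastrocnemius the same-numbered C26 and NTB arrays deviated together, with correlations of 0.380, 0.334 and 0.552 for numbers 1 to 3, and in heart they did not (0.097, -0.043 and 0.027). Of the markers of skeletal muscle fibres and of cardiac muscle cells, each list of 10 genes had its high levels in its own tissue. The mean log2 level of the skeletal list was 12.96 to 13.24 on C26 gastrocnemius and 13.35 to 13.43 on NTB gastrocnemius arrays, against 7.20 to 7.28 on C26 heart and 7.14 to 7.40 on NTB heart arrays. That of the cardiac list was 6.78 to 7.27 on C26 gastrocnemius and 7.50 to 7.72 on NTB gastrocnemius arrays, against 12.52 to 12.71 on C26 heart and 12.88 to 12.92 on NTB heart arrays.

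Promoter sequences are shown for genes whose tumour effects differed and which are known targets of FoxO factors, glucocorticoids or metal ions. They are chosen examples and do not stand for all such targets, whose lists are given below. Trim63 and Sesn1 rose in C26 gastrocnemius and were not called in heart, and the metallothionein genes Mt1 and Mt2 rose in both muscles and more in gastrocnemius. The sequences are RefSeq's, of build GRCm38.p6, each of 300 bases with 250 before and 50 from the transcription start, all on the plus strand: Trim63 at chr4:134314870-134315169, Sesn1 at chr10:41810324-41810623 (1 of 2 promoters in the table), Mt2 at chr8:94172368-94172667 and Mt1 at chr8:94178839-94179138. Capitals mark matches, on either strand, to the FoxO motif GTAAACA, the glucocorticoid receptor motif, whose half-sites GNACA and TGTNC stand 3 bases apart, and the metal response element core TGCACNC or TGCGCNC.
Trim63: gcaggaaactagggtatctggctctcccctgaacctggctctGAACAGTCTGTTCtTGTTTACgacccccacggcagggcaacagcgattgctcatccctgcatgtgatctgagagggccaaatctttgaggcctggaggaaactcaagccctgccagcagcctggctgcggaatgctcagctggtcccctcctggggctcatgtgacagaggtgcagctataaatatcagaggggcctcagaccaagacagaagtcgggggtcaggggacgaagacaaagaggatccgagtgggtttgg
Sesn1: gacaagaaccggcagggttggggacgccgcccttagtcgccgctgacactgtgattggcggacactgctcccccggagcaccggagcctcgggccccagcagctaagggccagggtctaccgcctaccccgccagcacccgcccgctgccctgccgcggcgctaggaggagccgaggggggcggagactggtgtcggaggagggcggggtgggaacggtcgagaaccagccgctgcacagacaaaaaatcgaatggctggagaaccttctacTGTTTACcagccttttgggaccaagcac
Mt2: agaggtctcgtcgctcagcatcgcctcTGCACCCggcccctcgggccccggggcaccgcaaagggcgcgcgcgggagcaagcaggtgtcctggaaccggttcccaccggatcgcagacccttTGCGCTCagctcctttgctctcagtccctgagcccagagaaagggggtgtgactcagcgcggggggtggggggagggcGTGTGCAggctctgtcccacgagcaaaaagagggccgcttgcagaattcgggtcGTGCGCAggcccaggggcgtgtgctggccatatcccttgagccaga
Mt1: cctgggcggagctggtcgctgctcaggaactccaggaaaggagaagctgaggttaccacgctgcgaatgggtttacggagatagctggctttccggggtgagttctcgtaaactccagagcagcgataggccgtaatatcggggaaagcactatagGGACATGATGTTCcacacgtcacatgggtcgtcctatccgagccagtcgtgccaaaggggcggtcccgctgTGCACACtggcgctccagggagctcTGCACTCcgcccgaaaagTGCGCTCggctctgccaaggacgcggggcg
Trim63 held 1 FoxO and 1 glucocorticoid motif, which lie side by side without overlap, and Sesn1 held 1 FoxO motif. Mt2 held 4 metal response cores and Mt1 held 3, with 1 glucocorticoid motif. Of 32851 promoters of this length, 3.65% held the FoxO motif, 0.475% the glucocorticoid motif and 25.7% the metal core, while 1.97% held at least 3 metal cores and 0.517% at least 4. Matches are given as letters only, and binding was not measured here.

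The tumour effect differed between the muscles for 797 of 23819 rows (3.35%) at an adjusted p under 0.05, with 414 higher (1.74%) and 383 lower (1.61%) in gastrocnemius. A row that passes this threshold is called below, and a gene "rose" or "fell" in a muscle where its own C26 minus NTB change passed it. The named rows that were called stand for 724 genes. In the same fit 2578 rows changed in C26 gastrocnemius (10.8%), 1448 up (6.08%) and 1130 down (4.74%), and 638 changed in C26 heart (2.68%), 416 up (1.75%) and 222 down (0.932%). Taking from the same fit 1 row for each of the 19610 genes, as the gene lists below do, the difference was called for 3.61%, higher for 1.86% and lower for 1.75%. By the same count 11.2% changed in gastrocnemius, 6.11% up and 5.11% down, and 2.86% in heart, 1.9% up and 0.959% down. With the replicate number as a block within each muscle, 734 rows were called higher and 731 lower for the difference. Without C26 gastrocnemius array 3 there were 1089 and 594, and without any 1 of the heart arrays 212 to 238 and 207 to 257.

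Most called differences were in rows that were called in gastrocnemius and not in heart, which does not show that the heart effect was 0. Of the 797 rows, 592 (74.3%) changed in gastrocnemius and were not called in heart, 337 rising and 255 falling. Another 121 changed in heart and were not called in gastrocnemius, 73 rising and 48 falling. A further 25 changed in both with opposite signs, 23 changed in both in the same direction by unequal amounts, and 36 were called in neither muscle alone. These sorts share 1 estimate of spread per row. With each muscle fitted alone, 849 rows were called in gastrocnemius and 2559 in heart, while the difference itself was called for 417 higher and 400 lower. By those separate fits, 395 of the 797 rows were called in gastrocnemius only, 200 in heart only, 32 in both with opposite signs, 69 in both in the same direction and 101 in neither, and 97 of the 592 were called in heart. The levels in NTB mice differed as well. Of the 255 rows that fell in gastrocnemius and were not called in heart, 125 had an NTB level more than 1 log2 unit higher in gastrocnemius than in heart, beside 5.36% of all rows tested. Of the same 255, 40 were under 6 on the log2 scale in NTB heart, beside 42.2% of all rows tested. Of the 48 that fell in heart and were not called in gastrocnemius, 23 were under 6 in NTB gastrocnemius, beside 43.5% of all rows tested. The same NTB arrays helped to choose these rows, so part of the gap in NTB level follows from the choice. Rows under 6 in NTB heart were 7.25% of all rows called higher and 15.9% of all called lower. All rows tested are thus an unlike reference, and no conclusion is drawn from these shares.

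**Figure D1:**
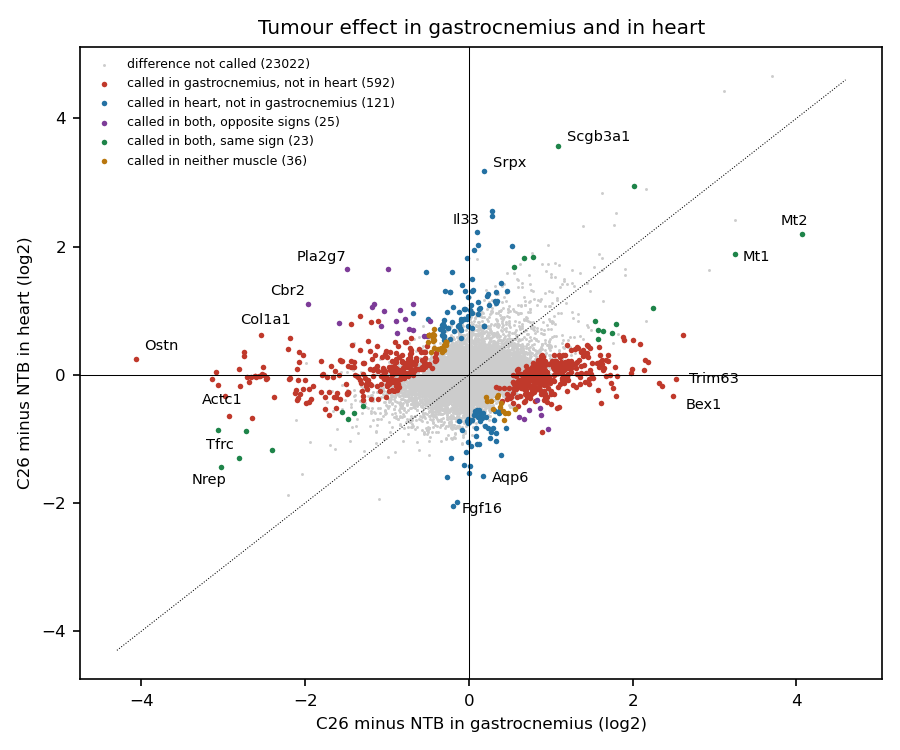
Tumour effect (C26 minus NTB, log2) in gastrocnemius on the horizontal axis and in heart on the vertical axis, 1 point per row with a gene symbol, coloured by the muscle in which the row was called where the difference was called. The 592 rows called in gastrocnemius and not in heart spread mainly to the left and right, with heart effects of up to 0.918 in size, the 121 called in heart and not in gastrocnemius spread mainly up and down, and the dotted line marks equal effects.

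The muscle ubiquitin ligases Trim63 (MuRF1) and Fbxo32 (atrogin-1) were among the 4 largest differences in favour of gastrocnemius. Trim63 was at 12.68, 12.63 and 12.97 on C26 gastrocnemius arrays and 10.45, 9.74 and 10.49 on NTB gastrocnemius arrays, and at 9.0, 8.90 and 9.24 on C26 heart arrays and 9.19, 9.02 and 9.13 on NTB heart arrays. The C26 and NTB arrays lay apart in gastrocnemius and overlapped in heart. The difference was 2.60 ± 0.25 (SE; adjusted p = 7.55e-05), a 6.08-fold larger change in gastrocnemius. Fbxo32 was at 12.89, 12.87 and 12.77 on C26 gastrocnemius and 10.59, 10.38 and 10.60 on NTB gastrocnemius arrays, and at 9.72, 9.32 and 9.24 on C26 heart and 9.71, 9.47 and 9.49 on NTB heart arrays. Again only the gastrocnemius groups were apart, and the difference was 2.45 ± 0.18 (adjusted p = 1.04e-05). Of 27 ubiquitin ligase and ubiquitin genes of atrophy, 5 were called higher and 0 lower, beside 1.86% higher and 1.75% lower of all 19610 genes with 1 row each, and the list's median difference was 0.18, against -0.01 over all genes. The others were Ube4a, a ubiquitin chain elongation factor (1.40), the polyubiquitin gene Ubb (0.51), and Asb2, a ligase subunit that fell in heart (-0.90) and was not called in gastrocnemius (0.33). Leaving out C26 gastrocnemius array 3 gave 8 such calls, and the replicate block 9.

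**Figure D2:**
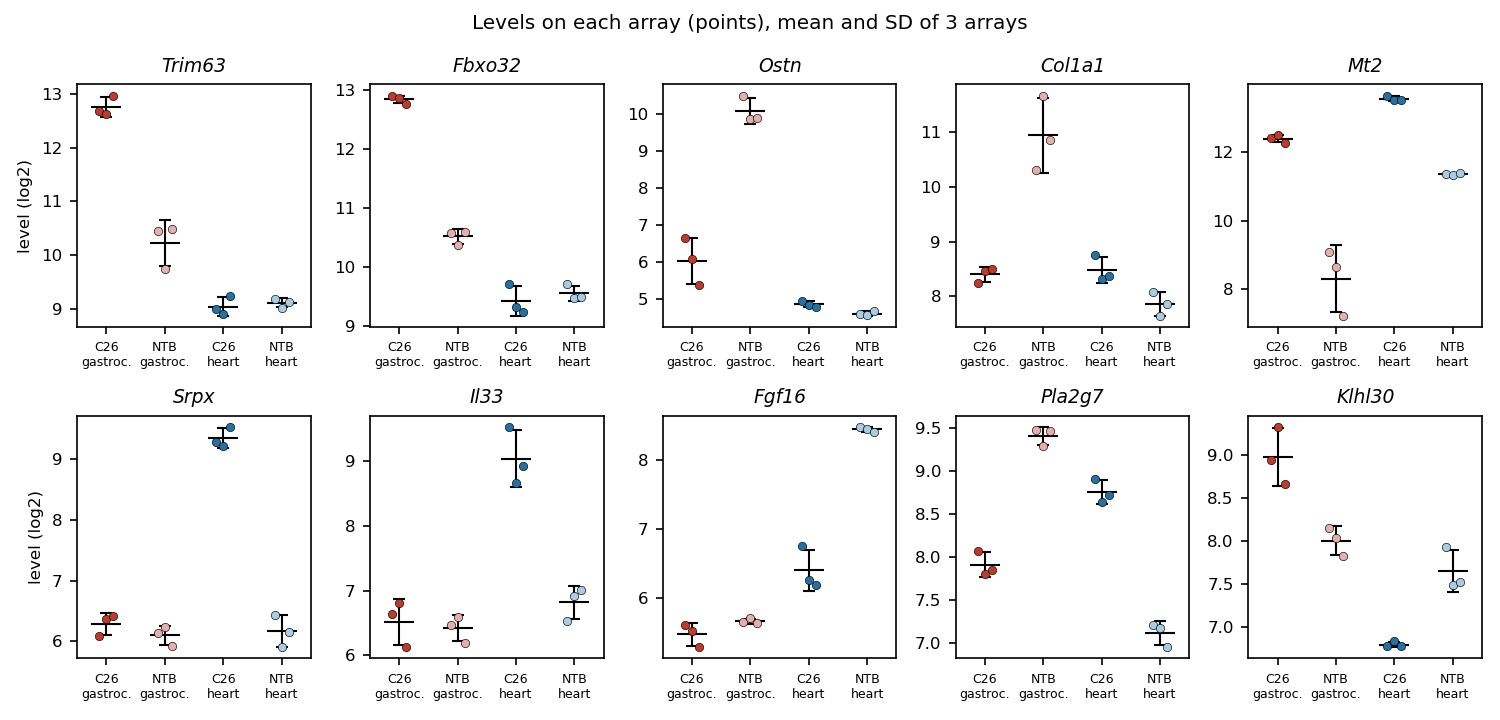
Log2 level of 10 genes on each array, with C26 gastrocnemius, NTB gastrocnemius, C26 heart and NTB heart along the horizontal axis; points are arrays, and bars give the mean and SD of 3 arrays. Trim63, Fbxo32, Ostn and Col1a1 were called in gastrocnemius and not in heart, Srpx, Il33 and Fgf16 in heart and not in gastrocnemius, Mt2 rose in both, and Pla2g7 and Klhl30 moved in opposite directions.

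The proteasome, the protease that degrades ubiquitin-tagged protein, had a higher tumour effect in gastrocnemius for 12 of 36 measured subunit genes and a lower one for 0. The difference was positive for 35 of the 36, with a median of 0.66, made of 0.64 in gastrocnemius and -0.03 in heart, where no subunit was called. Psma7, a subunit of the core particle, was at 10.77, 11.11 and 11.02 on C26 gastrocnemius and 9.29, 9.40 and 9.44 on NTB gastrocnemius arrays, and at 8.98, 9.07 and 9.0 on C26 heart and 8.97, 8.73 and 8.97 on NTB heart arrays. The gap between groups was wide in gastrocnemius and 0.01 at its narrowest point in heart, and the difference was 1.46 ± 0.16 (adjusted p = 0.000195). Psma4 (1.17), Psma5 (1.17) and the ubiquitin receptor Psmd4 (1.12) followed, although the second row of Psma5 was not called (0.98, adjusted p = 0.0609). Leaving out C26 gastrocnemius array 3 raised the count to 24 and the replicate block to 21, and no fit without 1 array gave fewer than 9.

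FoxO factors and their targets had 6 of 23 genes called higher and 0 lower, with a median difference of 0.50. Sesn1 (sestrin 1), which restrains the growth kinase mTORC1, was at 9.76, 9.83 and 9.79 on C26 gastrocnemius and 8.27, 7.87 and 7.93 on NTB gastrocnemius arrays, and at 9.99, 9.94 and 10.25 on C26 heart and 10.21, 10.34 and 10.26 on NTB heart arrays. The gastrocnemius groups were far apart, while those of heart overlapped. The difference was 1.98 ± 0.18 (adjusted p = 4.66e-05). The translation repressor Eif4ebp1 (1.95), the stress gene Gadd45a (1.83) and the insulin receptor gene Insr (0.86) were also called. The replicate block gave 9 calls, as did leaving out C26 gastrocnemius array 3, and leaving out C26 heart array 2 or NTB heart array 2 gave 4. Of 41 autophagy and lysosome genes 4 were called higher and 0 lower: the lysosomal protease Ctsl, which rose in both muscles (1.00), the autophagy kinase Ulk1 (0.83), and Map1lc3b (0.89) and Gabarapl1 (1.29), which code for proteins of the autophagosome membrane. The call of Map1lc3b was lost without C26 heart array 1, NTB heart array 2 or NTB heart array 3 (adjusted p up to 0.0633), and that of Gabarapl1 in each fit that lacked NTB gastrocnemius array 3 or a heart array other than C26 heart array 1 (adjusted p up to 0.073). The autophagy count was 2 without NTB heart array 2 or 3, 10 without C26 gastrocnemius array 3, and 9 with the replicate block.

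Genes for building ribosomes had a higher tumour effect in gastrocnemius, with 12 of 46 called higher, 0 lower and a median difference of 0.53. Nop14, which matures the RNA of the small subunit, was at 9.40, 9.62 and 9.19 on C26 gastrocnemius and 8.10, 8.02 and 8.0 on NTB gastrocnemius arrays, and at 7.46, 7.43 and 7.34 on C26 heart and 7.49, 7.39 and 7.29 on NTB heart arrays. Its groups were apart in gastrocnemius and mixed in heart, and the difference was 1.34 ± 0.18 (adjusted p = 0.000627). The nucleolar genes Ddx56 (1.46), Tsr1 (1.41) and Gnl3 (1.11) were also called. Of the 62 genes of cytosolic ribosomal proteins themselves, limma called 0 in either direction (4 at an unadjusted p under 0.05), with a median of 0.11. The ribosome-building count was 5 without C26 heart array 3 or NTB heart array 2, 24 without C26 gastrocnemius array 3 and 18 with the replicate block.

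Chaperone genes showed the same side, with 7 of 33 higher and 0 lower and a median difference of 0.33. Hspb7, a small heat shock protein of striated muscle, was at 11.14, 10.81 and 10.80 on C26 gastrocnemius and 9.50, 9.73 and 9.05 on NTB gastrocnemius arrays, and at 12.13, 12.24 and 12.13 on C26 heart and 12.13, 12.10 and 12.22 on NTB heart arrays. The level in C26 gastrocnemius stayed under that of either heart group, and the difference was 1.47 ± 0.21 (adjusted p = 0.0012). The mitochondrial chaperonin Hspe1 (0.78), the heat shock factor Hsf2 (0.93) and the cytosolic chaperonin subunit Cct2 (0.64) were also called, but each lost its call without NTB heart array 2 and the last pair also without C26 heart array 1, C26 heart array 3 or NTB heart array 1 (adjusted p up to 0.067). Cct2 further lost it without NTB heart array 3. The chaperone count was 2 without C26 heart array 1, C26 heart array 3, NTB heart array 1 or NTB heart array 2, and 15 without C26 gastrocnemius array 3.

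In insulin and IGF signalling 4 of 37 genes were called higher and 3 lower, with a median difference of -0.02. Eif4ebp1 and Insr, among the higher ones, are also counted in the FoxO list above. Akt1, the kinase that holds FoxO factors inactive, was at 9.85, 9.90 and 9.83 on C26 gastrocnemius and 8.50, 8.52 and 8.31 on NTB gastrocnemius arrays, and at 9.23, 9.42 and 9.33 on C26 heart and 9.39, 9.41 and 9.53 on NTB heart arrays. Its difference was 1.53 ± 0.15 (adjusted p = 8.11e-05), with groups apart in gastrocnemius and overlapping in heart. Pik3r1, the regulatory subunit of the kinase upstream, was also higher (1.29). Igfbp5, a secreted binding protein for IGFs, was at 8.37, 7.91 and 7.42 on C26 gastrocnemius and 10.46, 10.78 and 10.69 on NTB gastrocnemius arrays, and at 9.01, 8.90 and 8.79 on C26 heart and 8.64, 8.56 and 8.60 on NTB heart arrays. The C26 arrays were below the NTB arrays in gastrocnemius and slightly above them in heart, a difference of -3.04 ± 0.26 (adjusted p = 3.49e-05). The other lower calls, the adaptor Grb14 (-0.78) and the growth factor gene Igf1 (-1.06), were each lost without any of 9 arrays (adjusted p up to 0.12), and in 6 of the fits without 1 array (C26 heart 1 or 3, any NTB heart, C26 gastrocnemius 2) Igfbp5 was the 1 lower call left, while the replicate block gave 5.

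Several genes of the Z disc and thin filament, whose proteins anchor and sense tension in the sarcomere, had a higher tumour effect in gastrocnemius. Of 47 genes of actin, troponin, tropomyosin and the Z disc, 8 were called higher and 2 lower. The list as a whole had no side, with 23 positive and 24 negative differences and a median of -0.02. Ankrd1, a stretch-responsive repeat protein that binds titin, was at 8.48, 8.83 and 8.06 on C26 gastrocnemius and 6.08, 6.41 and 5.80 on NTB gastrocnemius arrays, and at 12.35, 12.67 and 12.55 on C26 heart and 12.66, 12.86 and 12.60 on NTB heart arrays. The heart groups overlapped at a level well above either gastrocnemius group, and the difference was 2.55 ± 0.26 (adjusted p = 0.000124). Csrp3, the muscle LIM protein (2.12), Flnc, a filamin of the Z disc (1.21), Lmod2, which sets thin filament length (1.61), and Xirp1, an actin-binding protein of muscle (1.67), were called with it. Actc1, cardiac alpha actin, went the other way: it was at 8.85, 8.13 and 7.28 on C26 gastrocnemius and 10.86, 11.47 and 11.11 on NTB gastrocnemius arrays, and at 13.69, 13.79 and 13.75 on C26 heart and 13.91, 13.91 and 13.90 on NTB heart arrays. C26 lay below NTB in both muscles, by far more in gastrocnemius, and the difference was -2.90 ± 0.38 (adjusted p = 0.000717). The heart change was not called by the spread shared by all groups (-0.16, adjusted p = 0.927). Myoz3, a calcineurin-binding Z disc protein of fast fibres, fell by 2.10 in gastrocnemius and was not called in heart (0.08). Without C26 gastrocnemius array 3 the higher calls numbered 13, and with the replicate block the lower ones numbered 5.

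Bex1, a small adaptor protein linked to muscle regeneration in mice, was also far higher in C26 gastrocnemius. It was at 8.19, 9.09 and 7.99 on C26 gastrocnemius and 5.54, 5.93 and 6.33 on NTB gastrocnemius arrays, and at 4.73, 4.28 and 4.31 on C26 heart and 4.82, 4.75 and 4.76 on NTB heart arrays. Its heart levels were near the low end of the scale, and the difference was 2.83 ± 0.36 (adjusted p = 0.000486). Of the 15 largest, Eda2r, a receptor for ectodysplasin A2 (2.05), Egln3, a prolyl hydroxylase of the oxygen-sensing pathway (1.99), Cnksr1, a scaffold of Ras signalling (1.99), and Acss1, a mitochondrial acetyl-CoA synthetase (1.92), were likewise called in gastrocnemius and not in heart.

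In fuel metabolism the sides were mixed. Of 50 genes of fatty acid uptake, storage and oxidation 6 were called higher and 1 lower, with a median difference of 0.38. Acadl, an acyl-CoA dehydrogenase (1.02), Pnpla2, the first lipase of fat droplets (0.95), Acacb, which makes the regulator malonyl-CoA (0.92), and the fatty acid carrier Cd36 (0.64) were higher. The lower one, the desaturase gene Scd1 (-2.25), lost its call without any of 10 arrays (adjusted p up to 0.122). Higher calls numbered 15 without C26 gastrocnemius array 3 and 10 with the replicate block, which also gave 3 lower ones. Markers of adipocytes, some of which are also genes of fat storage, had 0 of 10 called by limma for the difference (2 at an unadjusted p under 0.05, 1 with the replicate block, 3 without C26 gastrocnemius array 1) and 3 rising in C26 gastrocnemius. Their mean level was 6.87 to 8.30 on C26 gastrocnemius and 6.75 to 6.97 on NTB gastrocnemius arrays, and 6.92 to 7.05 on C26 heart and 6.59 to 6.95 on NTB heart arrays. Their median difference was 0.37, and 0.07 without C26 gastrocnemius array 3, and their part in the fatty acid list was not tested. Of 36 genes of respiratory complex I and 42 of complexes II to V, 15 and 22 fell in C26 gastrocnemius and 0 and 0 in C26 heart, but for the difference only Ndufs1 (-0.64) and Cyc1 (-0.84) were called, and both calls were lost without any of 10 arrays (adjusted p up to 0.13). The median changes were -0.566 and -0.576 in gastrocnemius and -0.195 and -0.16 in heart. The mean level of the complex I list was 10.32 to 10.39 on C26 heart and 10.52 to 10.57 on NTB heart arrays. That of complexes II to V was 11.481 to 11.555 on C26 heart and 11.662 to 11.702 on NTB heart arrays. So 0 calls in heart does not show that these genes held their level there. The median differences were -0.37 and -0.43, and -0.16 and -0.24 without C26 gastrocnemius array 3. With the replicate block, 7 and 11 were called lower, and without C26 gastrocnemius array 1 there were 3 and 11. Of 40 glycolysis and glycogen genes 2 were higher, Ugp2 (1.53), which makes the glucose donor for glycogen, and the branching enzyme Gbe1 (0.70), and 5 were lower: Phka1 (below), the phosphoglucomutase gene Pgm2 (-1.72), the enolase gene Eno1 (-0.86), lactate dehydrogenase A (Ldha, -1.03) and Ppp1r3a, a glycogen-targeting subunit of protein phosphatase 1 (-0.91), whose call was lost without any of 5 arrays (adjusted p up to 0.063). Leaving out C26 gastrocnemius array 1 gave 10 lower calls, and the replicate block 8.

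**Figure D3:**
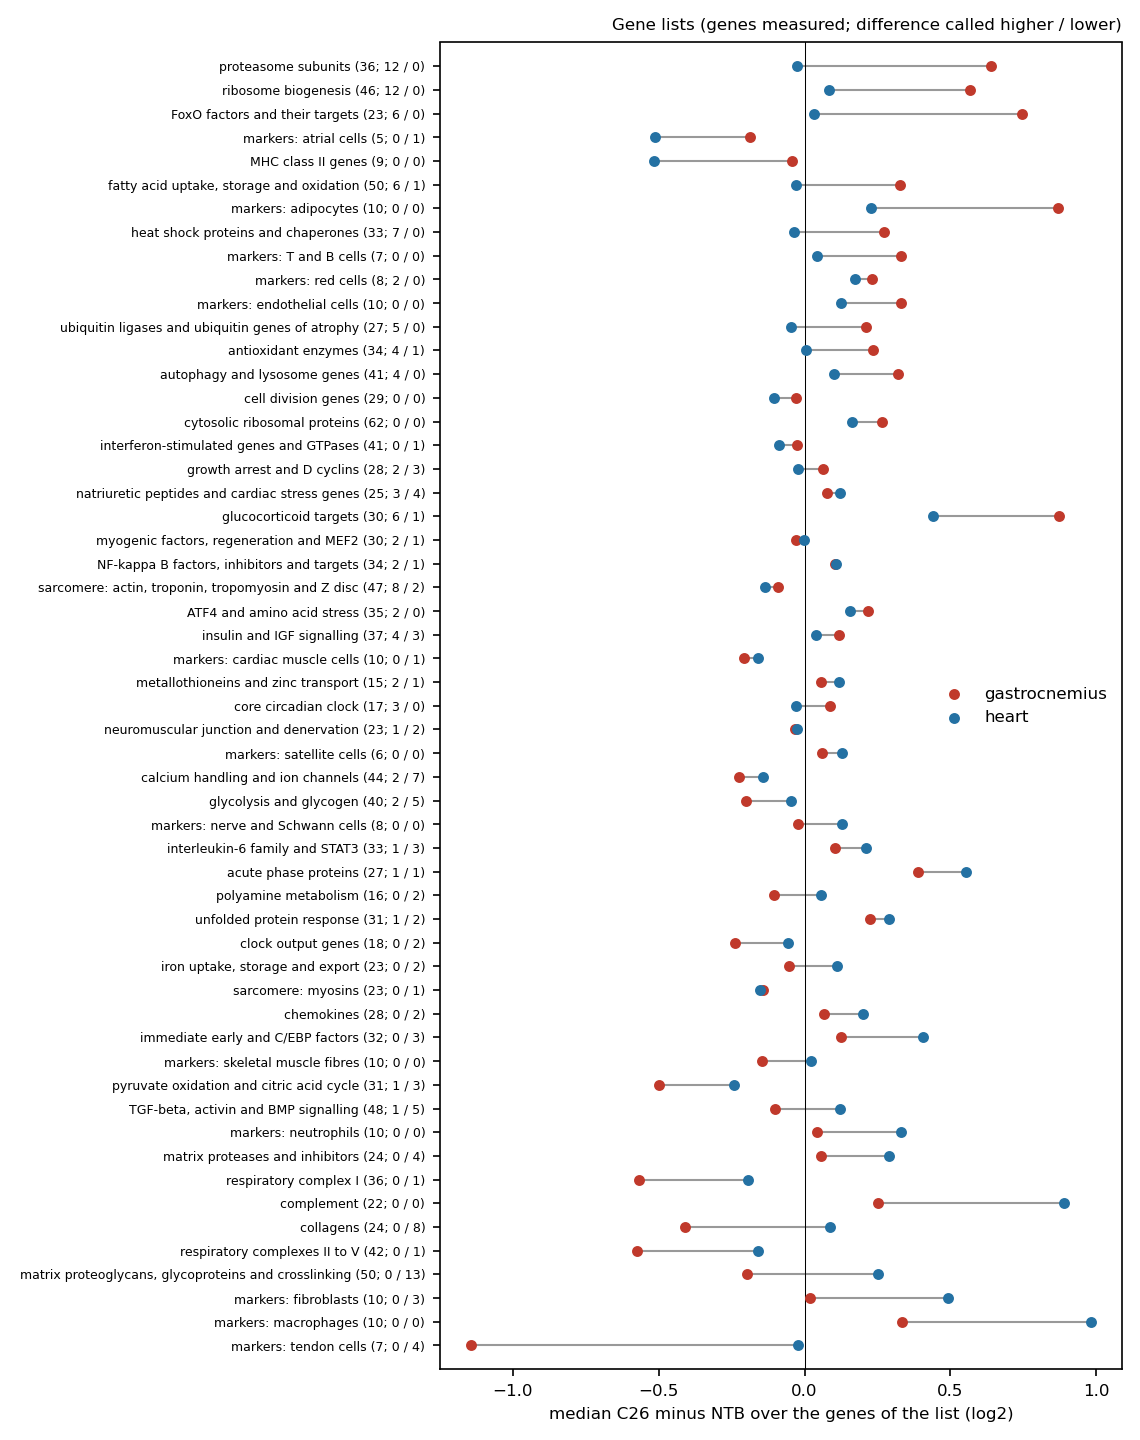
Median tumour effect (C26 minus NTB, log2) in gastrocnemius and in heart for each gene list, ordered by the median of the genes' differences; brackets give the genes measured and how many were called higher and lower for the difference. Proteasome, ribosome biogenesis and FoxO lists lie at the top with medians of 0.66, 0.53 and 0.50, and tendon markers at the bottom with -1.45.

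The largest negative difference was that of Ostn (osteocrin, or musclin), a peptide secreted by muscle that binds the clearance receptor of natriuretic peptides. It was at 6.63, 6.06 and 5.38 on C26 gastrocnemius and 10.50, 9.87 and 9.90 on NTB gastrocnemius arrays, and at 4.94, 4.82 and 4.78 on C26 heart and 4.58, 4.54 and 4.66 on NTB heart arrays. The gastrocnemius groups were more than 3 log2 units apart, and both heart groups were at the low end of the scale. The difference was -4.32 ± 0.35 (adjusted p = 2.46e-05), with a change of -4.07 in gastrocnemius. Gdap1, a protein of the mitochondrial outer membrane (-2.90), Plcd4, a phospholipase C (-3.12), Mybph, a myosin-binding protein (-3.09), Frzb, a Wnt antagonist (-2.75), and Slc37a4, the glucose 6-phosphate transporter (-2.65), also fell in gastrocnemius and were not called in heart.

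Among genes of the extracellular matrix, 11 of 24 collagen genes fell in C26 gastrocnemius and 1 rose in C26 heart, and of 50 genes of matrix glycoproteins, proteoglycans and crosslinking 15 fell and 2 rose in gastrocnemius and 7 rose in heart. Of the 24 collagen genes 8 were called lower and 0 higher for the difference, with a median of -0.41, made of -0.41 in gastrocnemius and 0.09 in heart. Col1a1, a chain of type I collagen, was at 8.25, 8.47 and 8.49 on C26 gastrocnemius and 10.31, 11.67 and 10.86 on NTB gastrocnemius arrays, and at 8.76, 8.31 and 8.38 on C26 heart and 8.08, 7.65 and 7.86 on NTB heart arrays. The C26 arrays lay wholly below the NTB arrays in gastrocnemius and wholly above them in heart. The difference was -3.16 ± 0.36 (adjusted p = 0.000223). The heart change was not called by the spread shared by all groups (0.62, adjusted p = 0.337). The SD was 0.135 in C26 gastrocnemius and 0.685 in NTB gastrocnemius, against 0.242 in C26 heart and 0.216 in NTB heart. The partner chain Col1a2 (-2.61), type III collagen (Col3a1, -2.23) and the type VI chain Col6a3 (-1.84) were also called. The collagen count was 5 without C26 heart array 1, NTB heart array 2 or NTB heart array 3. Of the 50 matrix glycoprotein, proteoglycan and crosslinking genes 13 were called lower and 0 higher, with a median of -0.46, among them the proteoglycans Kera (-2.59) and Lum (-1.39), the collagen processing enhancer Pcolce (-1.38) and Fbn1 (-1.95), the microfibril protein. A second row of Fbn1 was not called (0.15, adjusted p = 0.826). The count was 7 without NTB heart array 2 or 3 and 19 with the replicate block. Of 24 matrix proteases and inhibitors 4 were lower and 0 higher, of which Mmp2 (-1.28), Timp1 (-1.88) and Adamts2 (-1.16) rose in heart and were not called in gastrocnemius and Mmp19 (-1.13) in both muscles, more in heart. Leaving out C26 gastrocnemius array 3 gave 7 such calls, and the replicate block 8.

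Markers of tendon cells moved on the side of the matrix genes. Of 7 such genes 4 were called lower, and the list's median difference was -1.45. Tnmd (tenomodulin), a membrane protein of tendon, was at 5.71, 5.24 and 4.79 on C26 gastrocnemius and 7.69, 8.19 and 7.83 on NTB gastrocnemius arrays, and at 4.34, 4.85 and 4.83 on C26 heart and 4.90, 4.65 and 4.57 on NTB heart arrays. The C26 gastrocnemius arrays came near the level of heart, where the groups overlapped, and the difference was -2.62 ± 0.31 (adjusted p = 0.000274). The mean level of the list was 6.31 to 7.11 on C26 gastrocnemius and 7.90 to 8.28 on NTB gastrocnemius arrays, and 5.93 to 6.04 on C26 heart and 5.84 to 6.01 on NTB heart arrays. Kera, Comp and Fmod belong to this list and to that of matrix glycoproteins, and the calls of Comp and Fmod were lost without NTB heart array 2 or 3, that of Fmod further in 4 other fits that each lacked 1 array (adjusted p up to 0.0682). Of 10 fibroblast markers 3 were called lower (Dpt, Lum and Pi16), and the mean level was 7.94 to 8.25 on C26 gastrocnemius and 7.99 to 8.46 on NTB gastrocnemius arrays, and 9.64 to 9.82 on C26 heart and 9.10 to 9.17 on NTB heart arrays. The part of tendon cells and fibroblasts in the matrix differences was not tested. The fibroblast count was 5 with the replicate block, and the tendon count 2 without NTB heart array 2 or 3.

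Called differences of polyamine and calcium genes were mostly lower, while the lists as wholes were mixed. The polyamine list had 7 positive and 9 negative differences with a median of -0.11. The calcium handling and ion channel list had 18 positive and 26 negative ones with a median of -0.08. Smox (spermine oxidase) was at 8.93, 8.81 and 8.27 on C26 gastrocnemius and 11.19, 11.45 and 10.91 on NTB gastrocnemius arrays, and at 7.86, 7.73 and 7.82 on C26 heart and 7.84, 7.64 and 7.57 on NTB heart arrays. Its difference was -2.63 ± 0.24 (adjusted p = 5.86e-05), with overlap in heart and none in gastrocnemius. Amd1, the decarboxylase that supplies the aminopropyl donor for spermidine and spermine, had a difference of -2.53 (adjusted p = 0.000121), and its other rows on the array lay at -2.41 to -2.57. These were the 2 called of 16 polyamine genes, and leaving out C26 gastrocnemius array 1 gave 4 lower calls, as did the replicate block; C26 gastrocnemius array 3 left out, 2 others were called higher. Of 44 calcium handling and ion channel genes 7 were called lower and 2 higher; Sypl2, a protein of the triad junction (-2.60), Jph2, which ties the sarcoplasmic reticulum to the cell membrane (-1.80), and the calcium exchanger Slc8a3 (-1.08) fell in gastrocnemius and were not called in heart, while Casq1, the calcium store protein of fast fibres, fell in both, with a difference (-1.23) that was not called in 8 of the 12 fits without 1 array (highest adjusted p = 0.0856). The higher ones were the potassium channel partner Kcnip2, which fell in heart (1.17), and the calcium channel subunit Cacng1 (0.90). The lower count was 3 without C26 heart array 1, NTB heart array 1 or NTB heart array 3 and 11 without C26 gastrocnemius array 1, and the higher count 0 without C26 heart array 3 or any NTB heart array and 5 without C26 gastrocnemius array 3. Mef2c, a transcription factor of muscle, fell as well, by 2.09 in gastrocnemius (difference -1.72).

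The 121 rows called in heart and not in gastrocnemius by the pooled spread (200 with each muscle fitted alone) included Srpx, which had the largest negative difference among them. Srpx, a sushi-repeat protein, was at 6.09, 6.37 and 6.41 on C26 gastrocnemius and 6.14, 6.23 and 5.92 on NTB gastrocnemius arrays, and at 9.28, 9.22 and 9.53 on C26 heart and 6.44, 5.91 and 6.15 on NTB heart arrays. The 3 C26 hearts stood alone, and the other 9 arrays shared 1 range. The difference was -2.98 ± 0.22 (adjusted p = 1.04e-05). Il33, an alarm cytokine of barrier and stromal cells, was at 6.64, 6.81 and 6.12 on C26 gastrocnemius and 6.47, 6.59 and 6.20 on NTB gastrocnemius arrays, and at 9.53, 8.67 and 8.93 on C26 heart and 6.53, 6.92 and 7.02 on NTB heart arrays. The C26 hearts were again the high group, and the difference was -2.12 ± 0.32 (adjusted p = 0.00198). The same pattern held Vsig4, a complement receptor of macrophages (-2.27), Ahsg, a plasma protein known mainly from liver (-2.20), the chitinase-like Chil1 (-1.92), the metalloprotease inhibitor Timp1 (-1.88), the peptidase inhibitor Pi15 (-1.85) and Olfml2b (-2.13). Of these 6, all but Olfml2b had NTB gastrocnemius means under 6.

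Among genes that fell in heart and were not called in gastrocnemius, the largest difference was that of Fgf16, a growth factor made by cardiac muscle. It was at 5.60, 5.52 and 5.28 on C26 gastrocnemius and 5.64, 5.70 and 5.63 on NTB gastrocnemius arrays, and at 6.74, 6.26 and 6.19 on C26 heart and 8.48, 8.46 and 8.41 on NTB heart arrays. Heart levels in C26 mice were about 2 log2 units lower, and both gastrocnemius groups were low. The difference was 1.86 ± 0.21 (adjusted p = 0.000187). Aqp6, an aquaporin, was at 5.06, 5.15 and 5.38 on C26 gastrocnemius and 5.42, 4.89 and 4.77 on NTB gastrocnemius arrays, and at 8.08, 7.75 and 7.88 on C26 heart and 9.35, 9.50 and 9.58 on NTB heart arrays, with a difference of 1.75 ± 0.24 (adjusted p = 0.000808). As with Fgf16, the gene was low in gastrocnemius of either group, so the contrast rests on the hearts. The relaxin receptor Rxfp1 (1.43), the galactosyltransferase B3galt2 (1.53) and the methyltransferase Inmt (1.65) followed. Aplnr, the apelin receptor, fell by 1.60 in heart, and its difference of 1.33 was not called in 5 of the 12 fits that each lacked 1 array (C26 heart 2 or 3, NTB heart 1 or 2, NTB gastrocnemius 1; highest adjusted p = 0.0659).

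Genes that moved in opposite directions and were called in both muscles numbered 18 with a fall in gastrocnemius and a rise in heart, and 7 with the reverse. Pla2g7, the enzyme that inactivates platelet-activating factor, was at 8.07, 7.80 and 7.85 on C26 gastrocnemius and 9.47, 9.29 and 9.46 on NTB gastrocnemius arrays, and at 8.91, 8.64 and 8.72 on C26 heart and 7.21, 7.18 and 6.95 on NTB heart arrays. The difference was -3.14 ± 0.18 (adjusted p = 8.05e-07). The order of the muscles was thus turned: C26 gastrocnemius lay below C26 heart, and NTB gastrocnemius above NTB heart. Cbr2, a carbonyl reductase, was at 8.11, 8.06 and 7.63 on C26 gastrocnemius and 9.87, 10.38 and 9.46 on NTB gastrocnemius arrays, and at 10.95, 10.83 and 10.81 on C26 heart and 10.02, 9.67 and 9.59 on NTB heart arrays (difference -3.08 ± 0.29, adjusted p = 5.86e-05). Its NTB arrays overlapped between the muscles, and its C26 arrays did not. Phka1, the muscle subunit of phosphorylase kinase (-2.40), alkaline phosphatase Alpl (-2.04), the guanylate-binding protein Gbp6 (-1.66), Lrp4, a receptor of the neuromuscular junction (-1.13), and the matrix genes Dpt (-2.25), Abi3bp (-1.85), Col6a3 (-1.84) and Pcolce (-1.38) were of the same kind, as was Tmtc1 (-2.25).

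In the reverse direction, Klhl30, a kelch-like protein, was at 8.94, 9.32 and 8.66 on C26 gastrocnemius and 8.15, 8.03 and 7.83 on NTB gastrocnemius arrays, and at 6.78, 6.84 and 6.78 on C26 heart and 7.93, 7.49 and 7.53 on NTB heart arrays. No arrays overlapped between C26 and NTB in either muscle, and the difference was 1.82 ± 0.24 (adjusted p = 0.000644). Fdft1 (squalene synthase), at the branch of the cholesterol pathway, rose by 0.87 in gastrocnemius and fell by 0.52 in heart, and its second row gave a difference of 1.50 beside 1.40. The nuclear import receptor Ipo13 (1.36), the single-stranded DNA-binding Nabp1 (1.29), Ivns1abp (1.22) and Mhrt (1.26), a long noncoding RNA that lies antisense at the Myh7 locus in mouse, completed those named. For Mhrt, signal from overlapping transcripts cannot be told apart with 1 row.

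**Figure D4:**
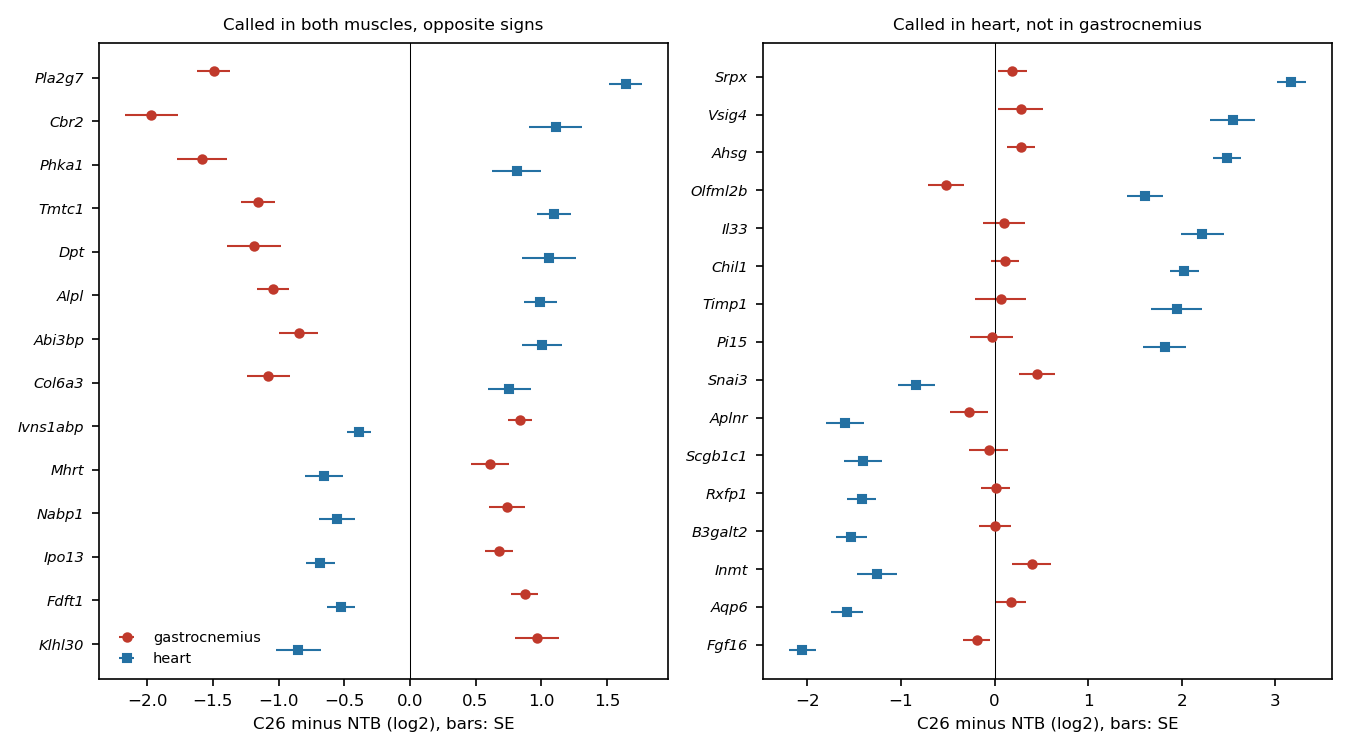
Tumour effect (C26 minus NTB, log2) with its SE in gastrocnemius and heart, left for 14 genes called in both muscles with opposite signs and right for 16 genes called in heart and not in gastrocnemius. Pla2g7 lies at the top left (-1.50 in gastrocnemius and 1.64 in heart) and Srpx at the top right (0.19 and 3.17).

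A few genes changed in the same direction in both muscles and by unequal amounts, 9 with a higher and 14 with a lower effect in gastrocnemius. The metallothionein gene Mt1, whose product binds zinc and copper, was at 12.23, 12.44 and 12.62 on C26 gastrocnemius and 9.46, 9.07 and 9.01 on NTB gastrocnemius arrays, and at 12.37, 12.27 and 12.32 on C26 heart and 10.56, 10.44 and 10.33 on NTB heart arrays. The C26 groups of both muscles met at 1 level from unequal NTB levels, and the difference was 1.37 ± 0.18 (adjusted p = 0.000776). Mt2 was at 12.40, 12.47 and 12.26 on C26 gastrocnemius and 9.07, 8.64 and 7.24 on NTB gastrocnemius arrays, and at 13.63, 13.50 and 13.50 on C26 heart and 11.34, 11.32 and 11.37 on NTB heart arrays. NTB gastrocnemius array 3 was far lower than the other NTB arrays, and the difference of 1.86 ± 0.44 (adjusted p = 0.0314) lost its call without any 1 heart array or C26 gastrocnemius array 2 (adjusted p up to 0.084). Il6ra, the interleukin-6 receptor (1.09), and Ampd3, an AMP deaminase (1.03), also rose more in gastrocnemius. Of 30 glucocorticoid targets 6 were called higher, Mt1, Mt2 and Ampd3 among them, and 1 lower (Dusp1). Their differences were 17 positive and 13 negative with a median of 0.04, and the replicate block gave 9 higher and 3 lower calls. Of 15 metallothionein and zinc transport genes 2 were higher (Mt1 and Mt2) and 1 lower (Slc39a1). Of these 15, 10 differences were negative, the median was -0.035, and the block gave 2 lower calls.

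Scgb3a1, a secretoglobin, rose in both and more in heart: it was at 7.12, 6.90 and 6.60 on C26 gastrocnemius and 6.08, 5.60 and 5.67 on NTB gastrocnemius arrays, and at 9.96, 10.51 and 10.66 on C26 heart and 6.92, 6.53 and 6.96 on NTB heart arrays. Its difference was -2.48 ± 0.29 (adjusted p = 0.00024). Tfrc, the transferrin receptor that takes up iron, fell in both and more in gastrocnemius. It was at 7.42, 7.38 and 6.94 on C26 gastrocnemius and 10.11, 10.40 and 10.41 on NTB gastrocnemius arrays, and at 6.59, 6.90 and 7.16 on C26 heart and 7.73, 7.82 and 7.67 on NTB heart arrays. The C26 levels of the muscles overlapped where the NTB levels had been far apart, and the difference was -2.20 ± 0.23 (adjusted p = 0.000126). Dbp, a clock-controlled transcription factor, fell by 2.72 in gastrocnemius and 0.88 in heart (difference -1.84 ± 0.29, adjusted p = 0.00251). In the core clock, the activator Arntl (1.29) and the nuclear receptor gene Rora (1.22) rose in gastrocnemius and were not called in heart, and the hour of tissue collection is not given for either cohort in the sources used here.

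Genes of systemic inflammation changed in both muscles. For the difference, 1 of 33 interleukin-6 family and STAT3 genes was called higher and 3 lower. Of 34 NF-kappa B genes 2 were higher and 1 lower, of 28 chemokine genes 0 and 2, and of 41 interferon-stimulated and GTPase genes 0 and 1. The replicate block gave 2 and 4, 2 and 2, 1 and 4, and 1 and 2 in that order. Of all genes, 1.86% were higher and 1.75% lower. Without C26 gastrocnemius array 3, 6 chemokine genes were lower. Of 27 acute phase genes, 10 rose in C26 gastrocnemius and 12 in C26 heart, and for the difference 1 was called higher (Mt2) and 1 lower (Pf4, platelet factor 4, -1.25), and both calls were lost without any 1 of the heart arrays. Lcn2 (lipocalin 2) was at 7.63, 9.74 and 9.21 on C26 gastrocnemius and 5.68, 5.95 and 5.61 on NTB gastrocnemius arrays, and at 11.39, 11.77 and 11.96 on C26 heart and 7.36, 7.09 and 7.40 on NTB heart arrays. It rose in both, and its difference of -1.32 was not called (95% interval -2.45 to -0.18, adjusted p = 0.259). Socs3, the feedback inhibitor of interleukin-6 signalling, rose in both, and its difference was -0.10 (95% interval -0.67 to 0.48, adjusted p = 0.94), with 0.28 in its other row. Of 22 complement genes 4 rose in C26 gastrocnemius and 9 in C26 heart, and limma called 0 for the difference (5 at an unadjusted p under 0.05, 2 lower without C26 gastrocnemius array 3), although 21 of the differences were negative. Their median was -0.38. Macrophage markers, which include complement C1q genes, had 0 of 10 called by limma for the difference (4 at an unadjusted p under 0.05), a median of -0.57, and mean levels of 6.46 to 7.44 on C26 gastrocnemius and 6.57 to 7.09 on NTB gastrocnemius arrays, and 8.75 to 8.79 on C26 heart and 7.73 to 7.92 on NTB heart arrays. Their part in the complement values was not tested. With the replicate block 3 complement genes were called lower.

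The cell cycle inhibitor Cdkn1a rose in both muscles, and its difference of -0.74 was not called (95% interval -1.32 to -0.15, adjusted p = 0.206). Foxo1, which rose in gastrocnemius, had a difference of 0.56 (95% interval -0.08 to 1.21, adjusted p = 0.452), which was not called. Another FoxO factor gene, Foxo3, was among the genes called higher for the difference in the FoxO list. The myosin heavy chain genes were not called: differences in the fast genes were -0.17 (Myh1), -0.49 (Myh2) and -0.20 (Myh4), and in the cardiac and slow genes 0.03 (Myh6) and -0.78 (Myh7) (adjusted p of 0.349 or more), with intervals that for Myh7 reached -1.57. The growth inhibitor Mstn (-0.30), the natriuretic peptides Nppa (0.64) and Nppb (0.16), the clock gene Per1 (-0.16) and skeletal actin Acta1 (0.38, adjusted p = 0.172) were not called either, though Acta1 was called without C26 gastrocnemius array 3 (adjusted p = 0.0362). Of 8 red cell markers the haemoglobin genes Hba-a1 (1.11) and Hbb-b1 (1.09) were called higher, while 3 of the 8 differences were negative and the list's median was 0.24, and RNA of their near-identical copies may bind the same probes. Of 5 atrial markers measured, 1 was called lower (Dkk3), while 4 differences were positive and the median was 0.425. That call was lost without C26 heart array 1 or 3 or NTB heart array 1 or 2. The mean level of the atrial list was 8.50 to 8.82 on C26 heart and 8.59 to 9.85 on NTB heart arrays. The part of atrial tissue in the heart changes was not tested. The remaining marker lists, of neutrophils, T and B cells, endothelial cells, satellite cells and nerve, had 0 genes called for the difference by limma, as had skeletal muscle fibres. The replicate block gave 2 lower calls among skeletal fibre genes, as did leaving out C26 gastrocnemius array 1, and leaving out C26 gastrocnemius array 3 gave 1 higher call there and 2 lower ones among neutrophil genes. At an unadjusted p under 0.05 there were 4 of 10 neutrophil, 1 of 10 endothelial and 5 of 10 skeletal fibre genes, and 0 of the T and B cell, satellite cell and nerve genes.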

How the data were processed

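Total RNA (250 ng per sample) was put on 1-colour Affymetrix MoGene-1_0-st-v1 arrays, per the labels. The deposited values are log2 expression values that the authors made with RMA; RMA, GCOS, Partek and build mm8 are named in the submitters' processing notes, without versions or roles. The log2 scale was inferred from the range of the values, and the sources used here do not give whether RMA was run on the 12 arrays at once. A second deposited table gave gene symbols, which stop after 7 characters; they were completed through RefSeq symbols and accessions (GRCm38.p6), and 1753 rows with a symbol stayed unnamed. The 12 expression columns of that table went unused because their names match no sample.

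In R 4.3.3 with limma 3.58.1, 4 group means were fitted to all 12 arrays (eBayes with trend, 8 residual degrees of freedom). The contrast was (C26 minus NTB in gastrocnemius) minus (C26 minus NTB in heart), two-sided, with Benjamini-Hochberg adjustment over 23819 rows and no filter on dim rows. Errors after ± are the fit's SE, n = 3 arrays per group, and this number limits the precision. Each gene of a list was represented by its row of highest mean. The script was tested on simulated data with independent noise on each array. Those data lack the shared deviations of same-numbered gastrocnemius arrays and an outlying array, so the test does not cover them. Replicate numbers were taken to pair the gastrocnemius arrays because all 3 correlations exceed 0.1; the block is given where it moves a count by over 1.5 times.

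Named genes were the 15 largest differences per direction, the 8 largest per direction among rows called in heart alone, in both with opposite signs or in both with the same sign, up to 4 called genes per list and direction, all where 5 or fewer were called, and 22 genes known from cachexia. Members, lists and named genes were chosen with earlier results of these data known. One result is not reported here.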

Additional observations from a re-analysis of the deposited data

Results flagged for a closer look

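Every called gene is one whose tumour effect differed between the muscles by limma's test of the difference itself, 414 higher and 383 lower in gastrocnemius. Those named whose changes were called in both muscles with opposite signs stand apart within them. With a fall in gastrocnemius and a rise in heart the differences were -3.14 for Pla2g7, -3.08 for Cbr2, -2.40 for Phka1, -2.25 for Tmtc1, -2.25 for Dpt, -2.04 for Alpl, -1.85 for Abi3bp, -1.84 for Col6a3, -1.66 for Gbp6, -1.38 for Pcolce and -1.13 for Lrp4. With a rise in gastrocnemius and a fall in heart they were 1.82 for Klhl30, 1.40 for Fdft1, 1.36 for Ipo13, 1.29 for Nabp1, 1.26 for Mhrt and 1.22 for Ivns1abp. None of these 17 lost its call without any 1 array. Among the 11737 rows without a gene symbol, which the report does not describe, 38 (0.324%) were called for the difference when all rows were tested together.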

How the results depend on the processing

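None of the 797 calls changed sign under any of the alternatives run, while their number moved. Without 1 array in turn, 212 to 1089 rows were called higher and 207 to 594 lower for the difference, 1928 to 3898 were called in gastrocnemius and 314 to 1225 in heart, the highest values all without C26 gastrocnemius array 3. With limma's array weights the counts were 1668 higher, 951 lower, 4822 in gastrocnemius and 2263 in heart. With a replicate block within each muscle they were 734 higher, 731 lower and 1079 in heart, and 795 of the 797 calls were kept; a replicate block shared by both muscles gave 444 and 435. With each muscle fitted alone 849 were called in gastrocnemius and 2559 in heart. With rows lacking a symbol included, 254 were lower and 425 called in heart, after quantile normalization 627 were lower, and with arrays centred on their median 252 were higher. Without replicate 1 of every group, an alternative chosen after seeing the data, the counts were 79 higher, 128 lower, 1387 in gastrocnemius and 195 in heart; without replicate 2 they were 36, 57, 704 and 96, and without replicate 3 they were 346 and 269 for the difference. Higher calls were 51.9% of all calls, and 64.7% without C26 gastrocnemius array 3, 63.7% with array weights and 44.8% after quantile normalization; no scaling moved the median of all rows by 0.1. Every fit without arrays has fewer residual degrees of freedom. Without 1 heart array 427 to 495 rows were called for the difference, and without 1 gastrocnemius array 597 to 1683. The cause of these shifts was not tested. Of the 193 genes named by the rule, none reversed, and most lost calls were in fits without arrays. The array medians over all rows were 5.93 to 6.09, so a level of 6 on the log2 scale lies near the middle of the values. Background was not measured, and how far a fall from a low level can be seen was not tested.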
